A study of Mus musculus with 19 samples.

Results

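The effect of Cmpd17b on the kidney transcriptome of normotensive mice was examined in the BPN/3J strain, in 9 of the 19 libraries of the series. The members were all libraries labelled BPN/3J, 4 from mice that received vehicle and 5 from mice that received Cmpd17b, and every gene with enough counts to be tested. BPN/3J is the blood-pressure-normal strain bred alongside the hypertensive BPH/2J strain, and both the treated and the control mice here were adult BPN/3J animals. Cmpd17b was given intraperitoneally once daily at 50 mg/kg/day for 28 days, and control mice received vehicle once daily for the same time. Each library was polyadenylated RNA from the kidney of 1 mouse. All carry batch label 2, and neither the sex of the mice nor the time of day at which kidneys were collected is in the labels. The library numbers of the treated mice follow those of the vehicle mice, what this order reflects is not given, and it cannot be told apart from treatment.

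Cmpd17b is a small-molecule agonist of formylpeptide receptors, G protein-coupled receptors found mainly on myeloid cells and also on some vascular cells. They sense formylated peptides released by bacteria and by damaged mitochondria, as well as annexin A1, and depending on the ligand they either recruit leukocytes or help inflammation to resolve. In a kidney of normal blood pressure the comparison asks what the compound does in the absence of hypertension.

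Library totals ranged from 28527520 to 40998662 estimated counts in vehicle mice and from 25546687 to 34244288 in treated mice. The difference in mean total was within the spread between mice (exact two-sided permutation test, p = 0.175, smallest p possible 0.0159). Transcripts of the mitochondrial genome took 14.1% ± 1.39 of counts in vehicle mice (SD, n = 4) and 13.6% ± 0.914 in treated mice (SD, n = 5), and this difference also lay within the spread (exact permutation p = 0.571). All 15 proximal tubule marker genes were measured, and their summed level was 42034 to 60506 CPM (counts scaled to library size with TMM factors) in vehicle and 38174 to 61990 CPM in treated kidneys, so the kidney label was borne out by its markers. The first principal component of the 500 most variable genes held 27.2% of the variance. Vehicle replicate 4 and Cmpd17b replicate 5, 1 library from each group, lay at 18.3 and 18.1 on it. The other 7 libraries were spread from -19.9 (Cmpd17b replicate 1) to 8.78 (Cmpd17b replicate 2). Correlations of log2 CPM between libraries ran from 0.967 to 0.992.

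No gene passed the test. edgeR's quasi-likelihood test, adjusted over 15636 genes by the Benjamini-Hochberg method, called 0 genes (0% of those tested), and the smallest adjusted p was 0.695. At an unadjusted p under 0.05 there were 772 genes, or 4.94% of those tested, of which 421 (2.69%) were higher and 351 (2.24%) lower in treated mice. DESeq2 on the same 9 libraries called 26 genes (0.166%), 10 higher (0.064%) and 16 lower (0.102%), and limma-voom called 0. The 2 groups did not overlap for 285 genes (1.82%), 151 higher (0.966%) and 134 lower (0.857%). The median log2 fold change over all genes was -0.01, and 46.9% of the estimates were above 0. The gene and list values below therefore describe these 9 mice, and "higher" and "lower" refer to estimates that did not pass edgeR's test.

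On the higher side, with the average log2 CPM required to reach 1, the genes of smallest p were Dtx4, Slc16a1, Lix1l, Sox18, Npas2, Nid2, Slc25a22, Atp1b2, Cdh11 and Fyn. Slc16a1 encodes MCT1, a proton-coupled carrier of lactate, pyruvate and ketone bodies. It was at 13.1, 21.43, 12.8 and 16.4 CPM in vehicle replicates 1 to 4 and at 26.1, 45.5, 33.1, 32.7 and 23.9 CPM in Cmpd17b replicates 1 to 5. All 5 treated mice lay above all 4 vehicle mice, and the highest vehicle mouse, replicate 2, was close to the lowest treated mouse. The log2 fold change was 1.02 ± 0.21 (SE), with an edgeR adjusted p of 0.695 and a DESeq2 adjusted p of 0.00767. Of the 15 monocarboxylate transporters and partners measured, 10 were above 0 with a median of 0.04 (7 with a median of -0.0080 without Cmpd17b replicate 2), and Slc16a1 was the only one with an estimate above 1.

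Dtx4 encodes a Deltex-family ubiquitin ligase that takes part in Notch trafficking. Its level was 9.17, 11.5, 7.06 and 10.7 CPM in vehicle mice and 14.99, 19.5, 18.2, 15.8 and 13.8 CPM in treated mice. The groups did not overlap, and the log2 fold change was 0.78 ± 0.15 (SE; DESeq2 adjusted p 0.0104). Of 21 Notch pathway genes tested, 16 were above 0 and the median was 0.11 (0.17 without vehicle replicate 2). Only Dtx4 and Heyl (0.39 ± 0.16) had an unadjusted p under 0.05, both higher, beside 2.69% of all genes.

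Nid2, which encodes the basement membrane protein nidogen-2, was at 8.64, 9.91, 8.47 and 10.9 CPM in vehicle mice and 13.6, 12.4, 12.6, 12.7 and 13.4 CPM in treated mice. The treated mice lay within a narrow band above every vehicle mouse, with a log2 fold change of 0.45 ± 0.10 (SE; DESeq2 adjusted p 0.0401). Slc25a22, a mitochondrial glutamate carrier, was at 16.8, 17.3, 19.7 and 15.7 CPM against 22.3, 28.0, 22.5, 22.0 and 23.9 CPM, and Atp1b2, a beta subunit of the sodium pump, at 4.69, 4.91, 4.03 and 4.36 CPM against 6.69, 6.68, 6.77, 6.09 and 5.79 CPM. Both were above every vehicle mouse in all 5 treated mice. Lix1l (0.92 ± 0.19 on the log2 scale), Cdh11, a mesenchymal cadherin (0.68 ± 0.17), and Fyn, a Src-family kinase (0.54 ± 0.13), were likewise non-overlapping, and DESeq2 called the first of these but not Cdh11 or Fyn.

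On the lower side the smallest p-values belonged to Acvr2b, Coq10b, Srd5a2, Nol4l, Tgm1, Nat8f6, Mtmr7, Mcm10, Zkscan5 and Xbp1. Acvr2b encodes an activin type II receptor. It was at 41.9, 26.2, 42.1 and 33.1 CPM in vehicle mice and 24.7, 17.3, 16.7, 19.5 and 21.8 CPM in treated mice. Every treated mouse was below every vehicle mouse, though vehicle replicate 2 and Cmpd17b replicate 1 were close. The log2 fold change was -0.84 ± 0.16 (SE; DESeq2 adjusted p 0.00566).

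Srd5a2 encodes steroid 5-alpha-reductase type 2, which converts testosterone to dihydrotestosterone. It was at 34.5, 27.6, 32.0 and 31.6 CPM in vehicle and 21.0, 26.4, 22.9, 21.0 and 21.2 CPM in treated mice, with no overlap and a log2 fold change of -0.48 ± 0.10 (SE; DESeq2 adjusted p 0.0175). Nol4l was at 18.7, 18.4, 17.7 and 15.7 CPM against 14.4, 9.85, 9.08, 10.5 and 12.3 CPM, again without overlap (-0.65 ± 0.13). Xbp1, a transcription factor of the unfolded protein response, was at 200.3, 122, 217 and 202 CPM against 111, 117, 115, 103 and 137 CPM. For Xbp1 the groups overlapped, because vehicle replicate 2 lay among the treated mice, and the log2 fold change was -0.67 ± 0.15 (SE; DESeq2 adjusted p 0.0457).

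Nat8f6 belongs to a cluster of closely similar N-acetyltransferase genes whose reads can be split between copies, so its values are uncertain. Nat8f6 was at 162, 141, 171 and 177 CPM in vehicle and 103, 107, 132, 89.2 and 122 CPM in treated mice. Its relative Nat8f5 was also lower, with overlap (-0.88 ± 0.22 in DESeq2, adjusted p 0.0457). The part of read splitting in these values was not tested. Mtmr7, a myotubularin-related phosphatase, and Mcm10, a replication factor, had log2 fold changes of -0.62 ± 0.14 and -0.57 ± 0.13 with overlapping groups. Zkscan5, a zinc finger protein, was lower without overlap (-0.34 ± 0.08).

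Of the 26 genes that DESeq2 called, 20 did not overlap between groups, beside 1.82% of all genes, and all 26 had an unadjusted p under 0.05 in edgeR. Both counts come from the 9 libraries on which the genes were selected, so they are no separate evidence. None of the 26 passed edgeR's test after adjustment. The DESeq2 calls included a gene below the level required above, Fgf18, and one kept out for its accession-like name, AY036118. Fgf18, a fibroblast growth factor, was at 1.47, 1.83, 1.78 and 1.47 CPM in vehicle mice and 0.525, 0.228, 0.463, 0.383 and 0.837 CPM in treated mice, with every treated mouse lower (-1.75 ± 0.31 on the log2 scale; DESeq2 adjusted p 6.34e-04). AY036118, a noncoding transcript that overlaps ribosomal RNA sequence, was at 73.9, 43.4, 95.5 and 74.1 CPM against 21.35, 23.9, 19.6, 18.6 and 41.3 CPM, also without overlap (-1.52 ± 0.26). The rRNA-linked transcript Gm26917 overlapped between groups, at 7766 to 20859 CPM without TMM scaling in vehicle and 9607 to 11197 in treated libraries, and its part in the AY036118 difference was not tested.

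**Figure D1:**
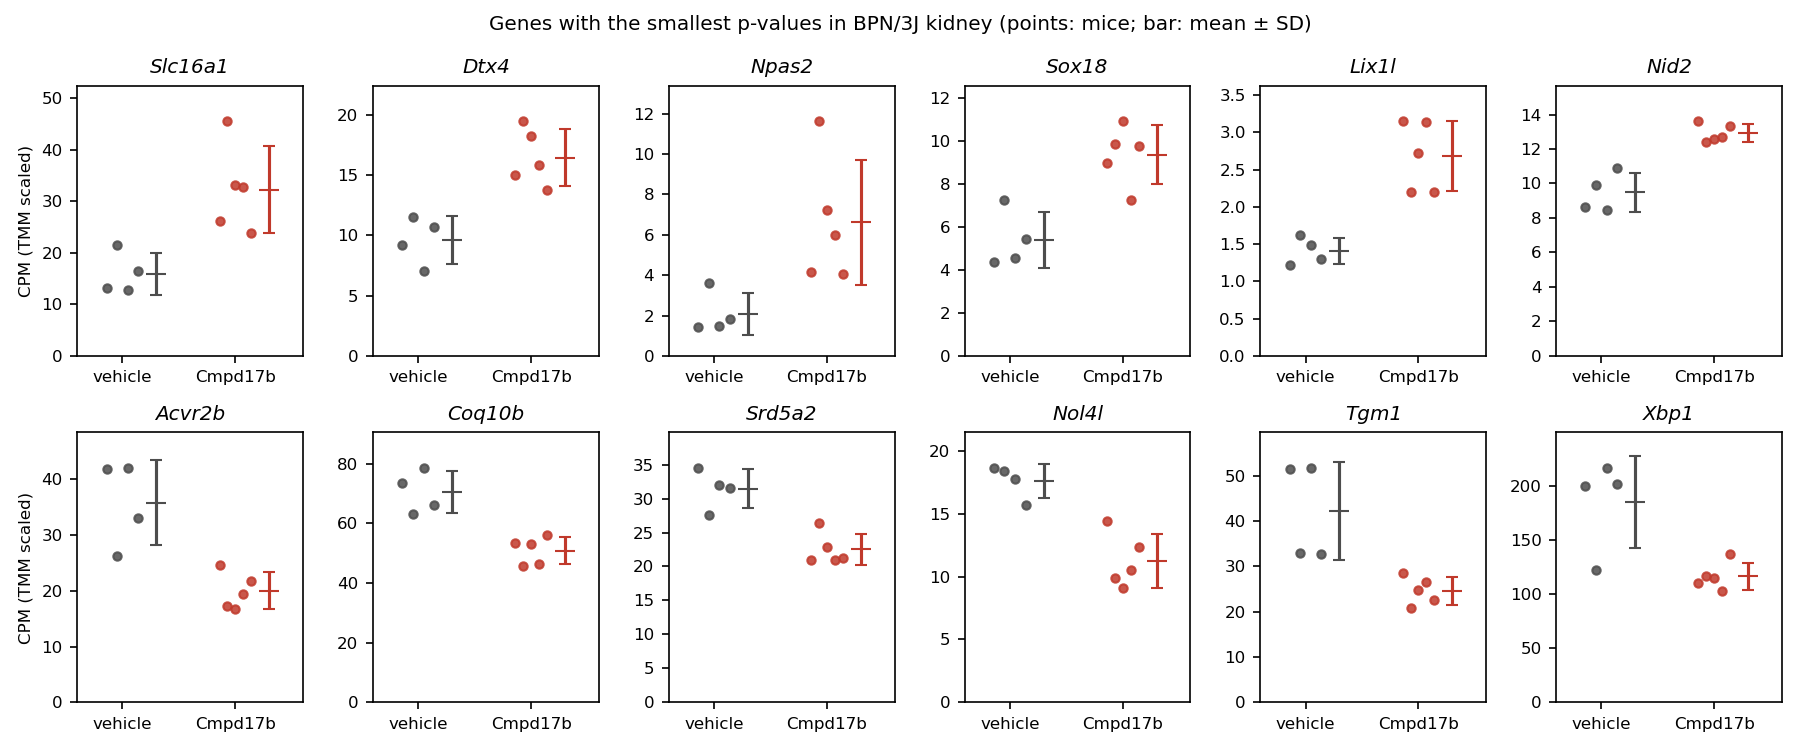
Level in CPM (y axis, starting at 0) of 12 of the genes with the smallest p-values in each BPN/3J mouse (points; bars are mean ± SD), with vehicle (n = 4) in grey and Cmpd17b (n = 5) in red. The treated points lie above all vehicle points in the upper row, and below them in the lower row except for Xbp1, where vehicle replicate 2 lies among the treated mice.

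Several of these genes belong to or follow the circadian clock. In the clock the activators CLOCK or NPAS2, paired with BMAL1, bind E-boxes in the promoters of their own repressors, the Period and Cryptochrome genes, and the repressors then shut the activators off, so that activator and repressor transcripts peak at opposite times of day. In the kidney the clock sets daily rhythms of sodium handling and blood pressure. Of the 31 clock genes tested, 19 had an unadjusted p under 0.05, 3 higher and 16 lower, where the share over all genes was 4.94%. The groups did not overlap for 6 of the 31, namely Npas2, Clock, Cry1, Coq10b, Usp2 and Por, beside 1.82% of all genes. edgeR called none of the 31 after adjustment. The clock lists, like the other lists below, were written with earlier results of these data known. Shares within a list therefore describe its members and test nothing. The hour of collection is not in the labels, and its part in these differences was not tested.

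The promoters of 4 of these genes are printed here to show where the canonical E-box lies, since this is the sequence the activators bind. RefSeq (GRCm38.p6) promoter entries matched 27 of the 31 clock genes, and the 250 bases before the start were searched for the E-box CACGTG, which reads the same on both strands. Capitals mark each match. The windows, 5′ to 3′ on the gene's strand, are chr3:95882229-95882478 (minus) for Ciart, chr10:85185055-85185304 (minus) for Cry1, chr1:55052520-55052769 (plus) for Coq10b and chr11:69098699-69098948 (plus) for Per1.
Ciart: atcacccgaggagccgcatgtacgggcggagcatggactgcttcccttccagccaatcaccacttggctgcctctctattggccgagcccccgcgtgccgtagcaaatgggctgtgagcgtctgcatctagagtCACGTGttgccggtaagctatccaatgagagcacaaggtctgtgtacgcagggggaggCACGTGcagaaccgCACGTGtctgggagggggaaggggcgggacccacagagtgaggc
Cry1: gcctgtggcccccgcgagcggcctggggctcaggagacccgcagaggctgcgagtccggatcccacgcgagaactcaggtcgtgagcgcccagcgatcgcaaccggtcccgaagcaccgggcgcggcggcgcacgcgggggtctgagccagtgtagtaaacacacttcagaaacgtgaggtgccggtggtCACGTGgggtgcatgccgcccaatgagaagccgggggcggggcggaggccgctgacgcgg
Coq10b: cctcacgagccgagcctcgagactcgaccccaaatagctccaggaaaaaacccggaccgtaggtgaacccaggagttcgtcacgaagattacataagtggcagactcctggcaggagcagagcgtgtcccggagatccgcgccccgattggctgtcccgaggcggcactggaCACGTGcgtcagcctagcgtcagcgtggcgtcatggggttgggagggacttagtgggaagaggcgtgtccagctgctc
Per1: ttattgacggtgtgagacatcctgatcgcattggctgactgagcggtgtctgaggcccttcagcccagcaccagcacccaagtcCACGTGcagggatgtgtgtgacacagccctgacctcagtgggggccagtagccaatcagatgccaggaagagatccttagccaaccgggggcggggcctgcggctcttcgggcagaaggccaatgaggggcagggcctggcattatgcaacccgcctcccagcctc

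The Ciart window held 3 matches, 116, 58 and 44 bases before the start. Cry1 held 1 match 60 bases before the start, Coq10b 1 match 78 bases before it, and Per1 1 match 166 bases before it. Of the 27 clock genes with an entry, 10 had an E-box before at least 1 of their starts, namely Per1, Cry1, Ciart, Bhlhe41, Tef, Fkbp5, Sgk1, Lonrf3, Tspan4 and Coq10b, against 6.86% of all 27025 genes in the table. Estimates for these 10 ran from -1.15 for Ciart to 0.16 for Sgk1 on the log2 scale, with those of Per1, Fkbp5, Sgk1 and Lonrf3 within their standard error. A match describes the letters in this window only. The related letters CACGTT, searched on both strands, were in the windows of 4 of the 27 genes and of 4.5% of all genes, and the D-box letters TTATGNAA (either strand) in those of 3 and of 3.63%. Outside the clock lists only Slc16a1 was looked up by name, chosen with its values known, and its window had an E-box 200 bases before the start. The windows of the other genes of smallest p outside the lists were not looked up.

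Of the 7 activators tested, 3 were above 0 and 4 below, with a median of -0.20 that turned to 0.14 without vehicle replicate 2 and to 0.05 without Cmpd17b replicate 1. Npas2 had the highest estimate. It was at 1.43, 3.60, 1.46 and 1.81 CPM in vehicle mice and 4.17, 11.6, 7.23, 5.98 and 4.08 CPM in treated mice. The treated mice were all above the vehicle mice, with Cmpd17b replicate 2 far above the rest and vehicle replicate 2 the highest of its group. The log2 fold change was 1.68 ± 0.37 (SE; edgeR adjusted p 0.695, DESeq2 adjusted p 0.0102). Bmal1, the obligate partner, was at 1.54, 3.51, 1.0 and 1.25 CPM against 2.98, 9.74, 7.14, 4.10 and 2.44 CPM. The groups overlapped only through vehicle replicate 2, and the log2 fold change was 1.55 ± 0.47 (SE).

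Clock itself differed little in size but without overlap, at 37.0, 36.0, 37.4 and 33.6 CPM against 40.3, 44.9, 40.7, 42.0 and 39.4 CPM (0.20 ± 0.07 on the log2 scale). The nuclear receptor Rora, which activates Bmal1, had a log2 fold change of -0.28 ± 0.13 (SE). Bmal2 (-0.20 ± 0.25) and the barely expressed Rorb (-0.21 ± 0.52) were within their error.

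Of the 11 repressors tested, 9 were below 0, 7 of them with an unadjusted p under 0.05, and the list median was -0.38. Per2 was at 38.04, 21.9, 32.4 and 31.3 CPM in vehicle mice and 22.4, 11.6, 15.4, 11.9 and 20.3 CPM in treated mice. The groups met only where vehicle replicate 2 lay just below Cmpd17b replicate 1. The log2 fold change was -0.92 ± 0.21 (SE), with a DESeq2 adjusted p of 0.0387. Cry1 was at 3.64, 1.86, 3.08 and 2.06 CPM against 1.48, 1.23, 1.85, 1.49 and 1.26 CPM, and the 2 groups stood barely apart, with vehicle replicate 2 again the lowest vehicle mouse (-0.86 ± 0.23).

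Ciart, a repressor of CLOCK and BMAL1, was at 8.96, 4.6, 10.6 and 8.39 CPM in vehicle and 3.71, 1.54, 2.75, 4.14 and 6.28 CPM in treated mice. Vehicle replicate 2 lay below Cmpd17b replicate 5, and the log2 fold change was -1.15 ± 0.34 (SE). Per3 (-0.59 ± 0.19), Bhlhe41 (-0.55 ± 0.23), Bhlhe40 (-0.38 ± 0.15) and the nuclear receptor Nr1d2 (-0.29 ± 0.12) were also lower on the log2 scale, with overlap. The other 4 repressors had no unadjusted p under 0.05. Per1 was at 23.4, 15.8, 23.3 and 23.9 CPM against 24.2, 14.6, 16.9, 18.1 and 24.6 CPM, with Cmpd17b replicates 1 and 5 as high as any vehicle mouse. Nr1d1, a repressor of Bmal1, was at 60.2, 75.3, 60.3 and 64.1 CPM against 97.2, 55.6, 68.7, 95.5 and 59.5 CPM (0.21 ± 0.17), Nfil3 had an estimate of 0.46 ± 0.31 and Cry2 one of -0.31 ± 0.16.

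Of the 13 output genes tested, 11 were below 0, 7 with an unadjusted p under 0.05, and the median was -0.29. Coq10b, a coenzyme Q-binding protein of mitochondria, was at 73.6, 63.2, 78.7 and 66.3 CPM in vehicle and 53.4, 45.7, 53.1, 46.2 and 56.0 CPM in treated mice. Every treated mouse was below every vehicle mouse, with a log2 fold change of -0.47 ± 0.09 (SE; DESeq2 adjusted p 0.0145). Usp2, a deubiquitinase whose transcript is strongly rhythmic in many tissues, was at 146, 129, 144 and 144 CPM against 118, 99.4, 108, 96.7 and 124 CPM, again without overlap (-0.36 ± 0.09).

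The PAR bZIP factor Dbp was at 181, 125, 186 and 185 CPM in vehicle and 124, 45.4, 70.5, 112 and 139.8 CPM in treated mice. It overlapped because vehicle replicate 2 was low and Cmpd17b replicate 5 high (-0.79 ± 0.28). Its relative Tef had a log2 fold change of -0.30 ± 0.11 and Hlf one of -0.16 ± 0.09. Por, which encodes cytochrome P450 reductase, differed by little but without overlap, at 262, 262, 259 and 259 CPM against 246, 218, 225, 227 and 242 CPM (-0.17 ± 0.07). Nampt, the rate-limiting enzyme of NAD salvage (-0.29 ± 0.10), and Tspan4 (-0.38 ± 0.13) were lower with overlap. The glucocorticoid-responsive genes on the list, Fkbp5 (-0.02 ± 0.24), Sgk1 (0.16 ± 0.20) and Tsc22d3 (-0.23 ± 0.14), had no common direction.

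Leaving out 1 library at a time kept 9 of 11 repressors below 0 in every case, with medians from -0.47 to -0.28, and 10 to 11 of the output genes below 0, with medians from -0.35 to -0.22. Genes whose log2 CPM followed that of Per2 closely over the 9 libraries included Usp2 (Pearson r 0.98), Coq10b (0.94), Atad2b (0.939) and Acvr2b (0.937). Among genes with an average log2 CPM of 3 or more, the most opposed were Ddc (-0.976), Dipk1a (-0.96), Slc16a1 (-0.959), 9330151L19Rik (-0.952) and Sphk2 (-0.944), and Npas2, which lies under that level, had an r of -0.956. These r describe the same 9 mice in 2 groups and carry no test.

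**Figure D2:**
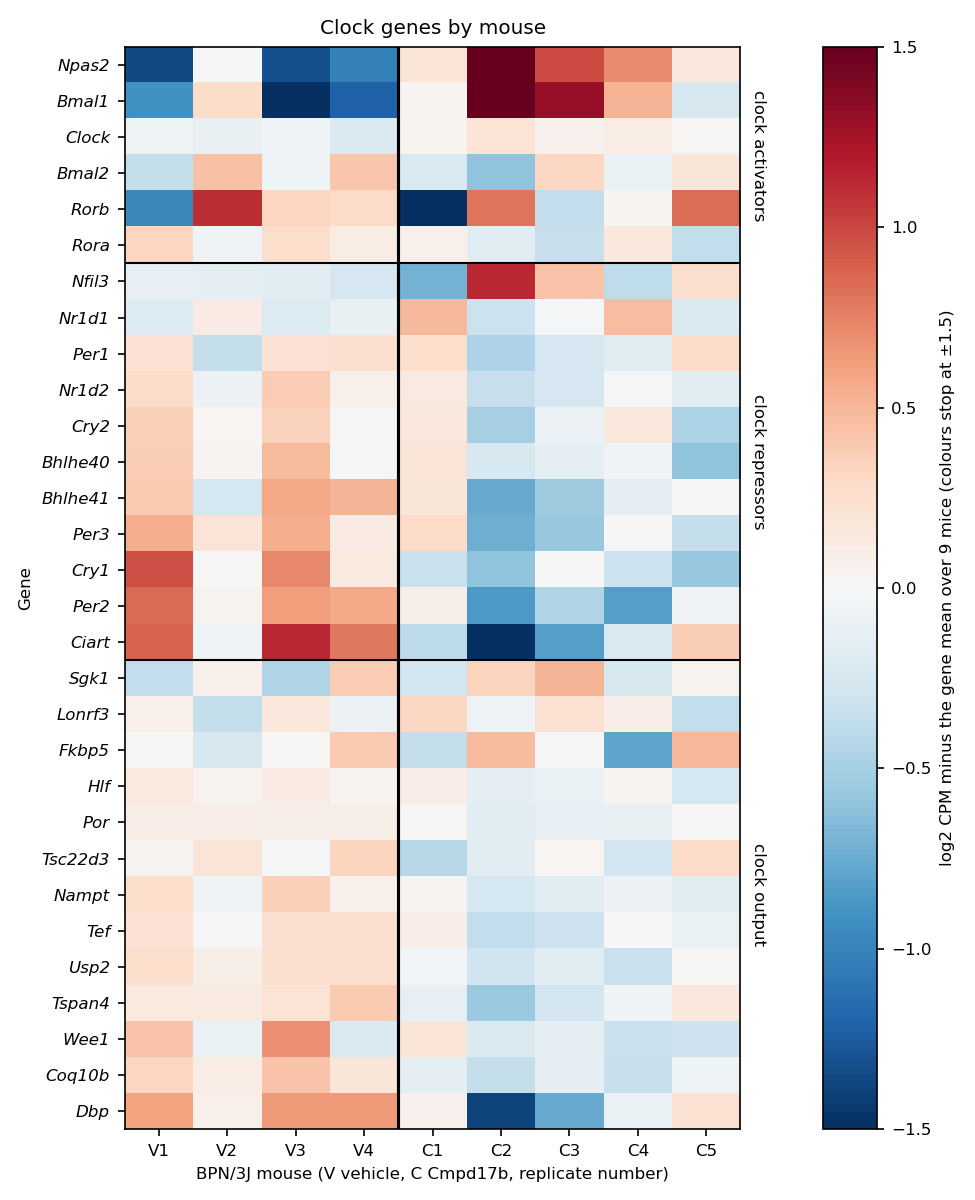
Heat map of 30 of the 31 tested clock genes (rows, by list and fold change) in the 9 BPN/3J mice (columns, V vehicle and C Cmpd17b with replicate number), coloured by log2 CPM minus the gene's mean over the mice, with red above and blue below and colours stopping at 1.5 either way. Npas2 and Bmal1 are blue in vehicle replicates 1, 3 and 4 and red in Cmpd17b replicates 2 to 4, most repressors and outputs show the opposite, and vehicle replicate 2 and Cmpd17b replicates 1 and 5 are paler.

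Marker genes of vascular cells were higher in treated kidneys. Endothelial cells line every renal vessel and the glomerular capillaries, and in bulk tissue more cells of a type cannot be told apart from more of its RNA per cell. Of 26 endothelial markers, 25 were tested, all 25 estimates were above 0 and the median was 0.31, where the median of all genes was -0.01. An unadjusted p under 0.05 was reached by 8, all higher, beside 2.69% of all genes, and edgeR called none. The 8 became 5 without vehicle replicate 3 and 15 without vehicle replicate 4. The summed level of the list was 453, 522, 426 and 596 CPM in vehicle mice and 655, 584, 649, 549 and 661 CPM in treated mice. Vehicle replicate 4 lay within the range of the treated mice, and the other vehicle mice were below it.

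Sox18, an endothelial transcription factor, was at 4.37, 7.22, 4.54 and 5.42 CPM in vehicle and 8.95, 9.85, 10.9, 7.24 and 9.76 CPM in treated mice. The groups came within rounding of each other at vehicle replicate 2 and Cmpd17b replicate 4 but did not overlap, with a log2 fold change of 0.80 ± 0.17 (SE; DESeq2 adjusted p 0.0176). Pecam1, a junction protein, was at 19.7, 23.0, 17.2 and 25.5 CPM against 33.6, 26.7, 32.2, 28.1 and 28.5 CPM (0.48 ± 0.12), and Cdh5, VE-cadherin, at 9.97, 13.3, 8.15 and 12.8 CPM against 19.8, 13.6, 13.6, 14.2 and 16.2 CPM (0.49 ± 0.17). Both were non-overlapping, as was the receptor Tie1 (0.35 ± 0.12). The VEGF receptor Kdr was at 22.7, 37.95, 19.04 and 46.8 CPM against 53.9, 40.6, 47.3, 42.9 and 43.2 CPM, with vehicle replicate 4 among the treated mice (0.53 ± 0.23). Nos3, the endothelial nitric oxide synthase, was at 0.03 ± 0.18 and Esam at 0.00 ± 0.13 on the log2 scale. When each library was left out in turn, 23 to 25 endothelial estimates were above 0 and the median ran from 0.24 to 0.41.

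Matrix and fibrosis genes gave a like picture. Of 41 tested, 12 had an unadjusted p under 0.05, all higher, beside 2.69% of all genes. This count was 3 without vehicle replicate 3 and 18 without vehicle replicate 4. It was 2 of 42 in the 18-library fit of both strains described below. Of the 41 genes, 38 were above 0 and the median was 0.31. Their summed level was 2491, 2696, 2280 and 2560.1 CPM in vehicle mice and 3134, 2941, 2893, 2804 and 2851 CPM in treated mice, with no overlap. Timp3, a metalloproteinase inhibitor abundant in kidney, made up most of that sum. Without Timp3 the sums were 696, 783, 625 and 844 CPM against 960.2, 836, 870.1, 802 and 968.5 CPM, and vehicle replicate 4 lay within the treated range. Over left-out libraries 35 to 40 estimates were above 0 and the median ran from 0.23 to 0.43.

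Of the 41 matrix genes tested, 2 did not overlap between groups, where 0.966% of all genes were higher without overlap. Both encode collagen IV chains of basement membranes. Col4a2 was at 71.9, 84.3, 63.7 and 60.0 CPM in vehicle and 98.3, 86.6, 86.2, 88.5 and 86.5 CPM in treated mice (0.35 ± 0.10), and Col4a1 at 101.1, 105, 86.4 and 87.6 CPM against 126.1, 113, 116, 108 and 118 CPM (0.29 ± 0.09). All 5 treated mice were above all 4 vehicle mice for each chain. Col15a1 (0.41 ± 0.15) and Col18a1 (0.19 ± 0.08), vessel-associated collagens, were higher with overlap. The fibrillar collagen Col3a1 was at 6.47, 7.96, 4.54 and 6.94 CPM against 12.5, 8.88, 8.04, 5.98 and 10.7 CPM (0.51 ± 0.22), with Cmpd17b replicate 4 inside the vehicle range. Col1a1 (0.44 ± 0.26), Fn1 (0.26 ± 0.23), Tgfb1 (0.22 ± 0.13) and Ccn2 (0.36 ± 0.29) had larger errors relative to their estimates. Ccn2 was at 21.2, 22.2, 21.1 and 57.2 CPM in vehicle mice, where replicate 4 alone was high, and at 42.2, 35.6, 40.5, 29.4 and 48.4 CPM in treated mice.

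Podocytes, the filtration cells of the glomerulus, were represented by 14 markers, of which 12 were above 0, with a median of 0.34. Of these 14, 5 had an unadjusted p under 0.05, all higher, beside 2.69% of all genes. Podxl is on both the podocyte and the endothelial list. Synpo, an actin-binding protein of podocyte foot processes, was at 13.9, 10.6, 13.5 and 14.4 CPM in vehicle and 19.3, 21.7, 23.4, 21.1 and 12.5 CPM in treated mice (0.58 ± 0.17). Cmpd17b replicate 5 lay within the vehicle range, and the other treated mice were above it. Col4a3 (0.39 ± 0.14) and Col4a4 (0.26 ± 0.10), collagen chains of the glomerular basement membrane, were higher with overlap. Without Cmpd17b replicate 5 the podocyte median was 0.47.

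Of 15 smooth muscle and pericyte markers, 13 were above 0. An unadjusted p under 0.05 was reached by 3, all higher, beside 2.69% of all genes. The list median was 0.21. It was 0.38 without vehicle replicate 2 and 0.10 without vehicle replicate 4 and Cmpd17b replicate 5 together, and without Cmpd17b replicate 5 alone 10 of 15 were above 0. Mylk, myosin light chain kinase, was at 57.6, 70.4, 51.7 and 70.0 CPM against 85.8, 76.5, 76.7, 75.7 and 73.4 CPM without overlap (0.31 ± 0.10). Mcam (0.50 ± 0.15) and Pdgfrb (0.44 ± 0.20) were higher with overlap, and the contractile gene Acta2 was at 9.52, 16.1, 10.2 and 11.6 CPM against 11.9, 17.4, 15.6, 10.08 and 16.0 CPM (0.26 ± 0.19).

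**Figure D3:**
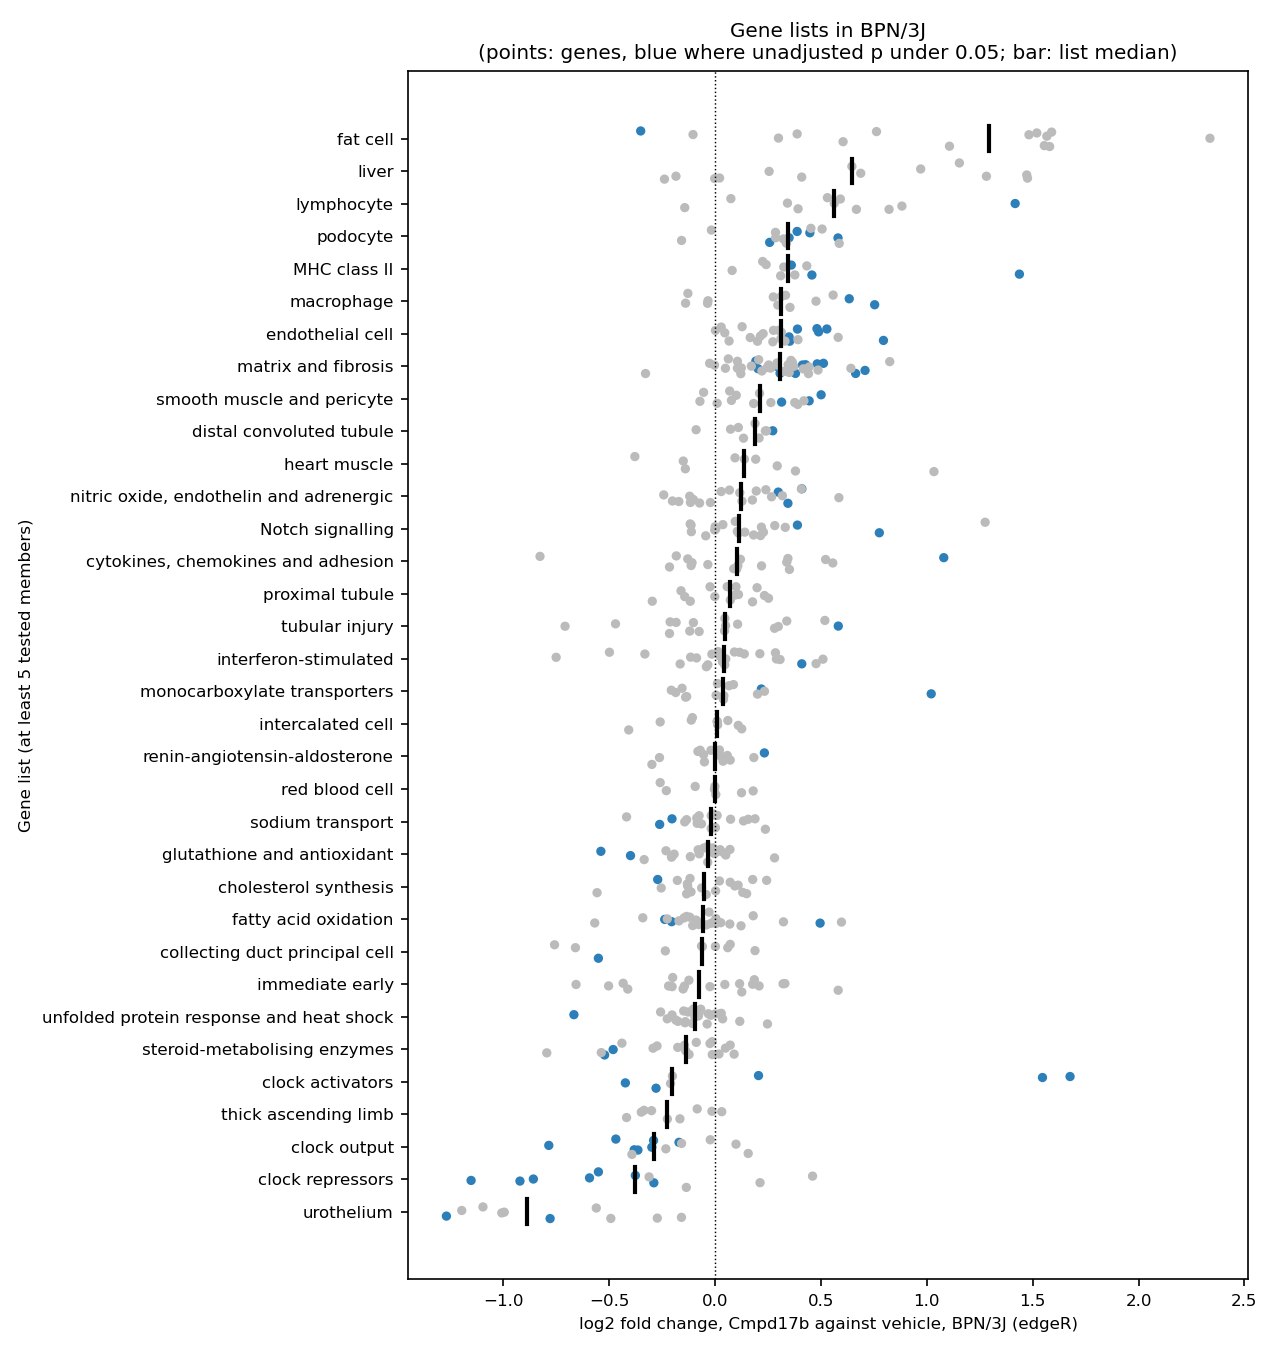
Log2 fold change of each tested gene (points; x axis, Cmpd17b against vehicle in BPN/3J) in every gene list with at least 5 tested members (y axis), with the list median as a black bar and genes with an unadjusted p under 0.05 in blue. All endothelial and MHC class II points lie above 0 and all urothelium points below 0, and the fat cell and liver lists are spread widely.

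Lists of tubule segment markers had medians between -0.23 and 0.19. Proximal tubule markers had a median of 0.07, with 9 of 15 above 0 and none at an unadjusted p under 0.05. Thick ascending limb markers had a median of -0.23, with 8 of 9 below 0 and also none under 0.05, and the median was -0.14 without vehicle replicate 3. Umod, the uromodulin gene of that segment, was at 2082, 1462, 2129 and 821 CPM in vehicle and 1711, 977.6, 1471, 1470.1 and 964.2 CPM in treated mice (-0.30 ± 0.27), and the lowest values were those of vehicle replicate 4 and Cmpd17b replicates 2 and 5. Distal convoluted tubule markers had a median of 0.19, with 8 of 9 above 0 (0.09 without Cmpd17b replicate 2, also with 8 above), among them the magnesium channel Trpm6 (0.27 ± 0.12) and the thiazide-sensitive cotransporter Slc12a3 (0.24 ± 0.20). In the collecting duct the water channel Aqp2 was at 295, 194, 339 and 204 CPM against 158, 167, 196, 117 and 240.5 CPM (-0.55 ± 0.21), with overlap, while the 10 principal cell markers had a median of -0.06 (-0.02 without vehicle replicate 1 and -0.12 without vehicle replicate 4) and the 10 intercalated cell markers one of 0.01 (-0.07 without Cmpd17b replicate 2).

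Urothelium is the epithelium that lines the renal pelvis. All 10 tested urothelial genes were below 0, 2 with an unadjusted p under 0.05 beside 2.24% of all genes, and the median was -0.89. Tgm1, a transglutaminase of stratified epithelia, was at 51.4, 33.0, 51.8 and 32.7 CPM in vehicle and 28.5, 20.8, 24.8, 26.5 and 22.5 CPM in treated mice, without overlap (-0.78 ± 0.16; DESeq2 adjusted p 0.0148). The uroplakin gene Upk1b, which defines urothelium, was at 1.19, 2.19, 1.27 and 0.50 CPM against 0.492, 0.143, 0.231, 0.690 and 1.5 CPM (-1.10 ± 0.59), with Cmpd17b replicates 4 and 5 within the vehicle range. The summed list was 135, 115, 135 and 106 CPM against 82.8, 87.7, 93.0, 87.5 and 117 CPM. Over left-out libraries the median ran from -1.10 without Cmpd17b replicate 5 to -0.47 without vehicle replicate 2. The part of the urothelial signal in the Tgm1 difference was not tested.

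Marker genes of fat, liver and adrenal cortex varied between libraries. Fat cell genes had a median of 1.29 with 12 of 14 above 0, and without Cmpd17b replicate 1 the median was -0.27 with 1 of 12 above 0. Ucp1, the uncoupling protein of brown fat, was at 17.1, 0.200, 0.145, 0.728 and 0.0697 CPM in the treated mice and at 0.105, 0.823, 0.244 and 1.67 CPM in vehicle mice. Liver genes had a median of 0.65, which was 0.06, 0.27 and 0.28 without Cmpd17b replicates 1, 2 and 3 in turn and 0.30 without vehicle replicate 1. Their mean log2 CPM was 0.86, 2.27, 0.74 and 1.36 in vehicle mice and 2.87, 1.96, 2.14, 0.95 and 1.501 in treated mice, with vehicle replicate 2 and Cmpd17b replicates 1 to 3 the highest. The adrenal gene Star was at 0.595, 6.65, 1.07 and 0.722 CPM in vehicle mice, where replicate 2 stood apart, and at 1.12, 1.57, 0.665, 1.03 and 1.05 CPM in treated mice. Heart muscle genes summed to 9.21 to 13.6 CPM in vehicle and 9.77 to 13.8 CPM in treated mice.

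**Figure D4:**
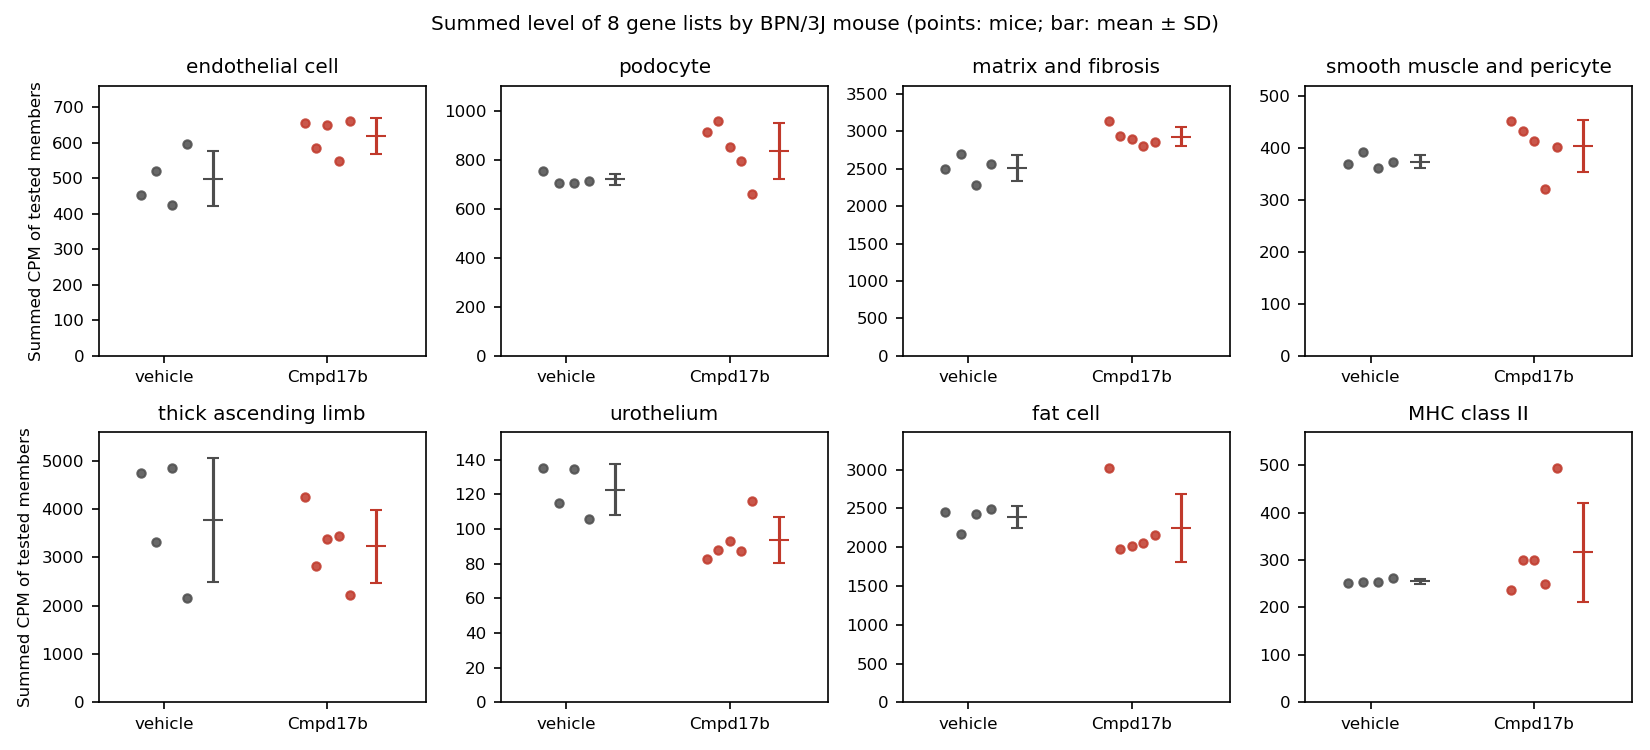
Summed CPM of the tested members of 8 gene lists (y axes, starting at 0) in each BPN/3J mouse (points; bars are mean ± SD), vehicle in grey (n = 4) and Cmpd17b in red (n = 5). The matrix sums do not overlap, the endothelial, podocyte and urothelium sums overlap by 1 or more mice, and single treated mice stand out for fat cell and MHC class II genes.

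The receptors that Cmpd17b acts on were barely detected in whole kidney. Fpr1 had 7 estimated counts over the 4 vehicle libraries and 7 over the 5 treated libraries, and Fpr2 had 12 and 9. Fpr3 had 0 in all 9, which allows up to 3 counts. None of these passed the count filter, so whether their transcripts differed was not detectable at this depth. The endogenous ligand Anxa1 was at 5.67, 5.52, 4.64 and 8.0 CPM in vehicle and 7.54, 6.40, 5.24, 5.90 and 8.86 CPM in treated mice (0.19 ± 0.19). Of the 18 receptor and ligand symbols only 3 were tested. Among the ligands under the count filter, Saa1 had 1 estimated count over the vehicle libraries and 42 over the treated libraries. Saa2 had 0 and 20. Most of these counts were in Cmpd17b replicates 1 to 3, and Fpr2 went the other way. The listed symbols for a mitochondrial gene, Mtnd1 and mt-Nd1, matched no gene name in the deposited values.

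Of 14 renin-angiotensin-aldosterone genes tested, 7 were above and 7 below 0. Ren1, renin, was at 166, 144, 174 and 138 CPM against 178, 181, 168, 83.7 and 138 CPM (-0.05 ± 0.19), with Cmpd17b replicate 4 far below the others. Agt had a log2 fold change of -0.30 ± 0.23 and Ace one of -0.02 ± 0.20. The angiotensin II receptor Agtr1a was at 36.4, 43.6, 30.0 and 40.97 CPM in vehicle and 43.9, 44.1, 47.2, 43.2 and 43.3 CPM in treated mice (0.23 ± 0.10). Its treated values were tightly grouped near or above the top of a wider vehicle range.

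Of 22 nitric oxide, endothelin and adrenergic genes, 14 were above 0 with a median of 0.12, or 0.08 without vehicle replicate 4 and Cmpd17b replicate 5 together. Adra1a, an adrenergic receptor, was at 23.7, 25.2, 21.1 and 21.36 CPM against 34.4, 32.6, 29.6, 26.8 and 21.5 CPM (0.34 ± 0.13), with Cmpd17b replicate 5 within the vehicle range. Gucy1b1, a subunit of the nitric oxide receptor, had a log2 fold change of 0.41 ± 0.18, and Edn1 one of -0.10 ± 0.31. Of 20 sodium transport genes, 13 were below 0 with a median of -0.02, and 10 were below 0 with a median of 0.02 without Cmpd17b replicate 5. Atp1b1, the main renal beta subunit of the sodium pump, was at 2730.4, 2421, 2896 and 2707 CPM against 2294, 2362, 2376, 2414 and 2226 CPM, without overlap (-0.20 ± 0.08), and the kinase Stk39 was lower with overlap (-0.26 ± 0.11).

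Antigen-presentation genes turned largely on 1 treated mouse. All 10 tested MHC class II genes were above 0 and the median was 0.34. An unadjusted p under 0.05 was reached by 3 of them, all higher, beside 2.69% of all genes. The summed list was at 251, 254, 253 and 262 CPM in vehicle mice and 237, 299.9, 299.5, 249.6 and 494 CPM in treated mice. Cmpd17b replicate 5 was far above all others, and without it 7 of the 10 genes were above 0 and the median was 0.11. H2-Ob, a modulator of peptide loading in B cells, was at 0.525, 0.305, 0.220 and 0.556 CPM against 1.02, 1.06, 1.13, 0.843 and 1.36 CPM, without overlap (1.44 ± 0.31; DESeq2 adjusted p 0.0295).

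Of 13 macrophage markers, 9 were above 0 with a median of 0.31 (0.20 without Cmpd17b replicate 5, with 10 above 0), and the chemokine receptor Cx3cr1 was at 2.34, 2.47, 1.64 and 2.64 CPM against 2.76, 3.40, 3.33, 3.68 and 6.0 CPM (0.75 ± 0.24). Cd68 was also higher without overlap (0.63 ± 0.23). These were the only 2 of the 13 without overlap, where 0.966% of all genes were higher without overlap. The summed macrophage list overlapped, at 119 to 139 CPM in vehicle and 117 to 148 CPM in treated mice. Of 11 lymphocyte markers, 10 were above 0 (7 of 9 tested without Cmpd17b replicate 5), at summed levels of 2.42 to 6.92 CPM in vehicle and 5.15 to 9.83 CPM in treated mice. Neutrophil markers were tested for 4 of 15 genes and summed to 4.25 to 5.32 CPM and 3.60 to 5.58 CPM. Of 18 cytokine, chemokine and adhesion genes, 11 were above 0 (9 of 17 tested without Cmpd17b replicate 5). Only Cxcl9 (1.08 ± 0.47) had an unadjusted p under 0.05, beside 2.69% of all genes higher, and Cmpd17b replicate 5 was its high library. Icam1 (0.11 ± 0.15), Vcam1 (0.34 ± 0.18) and Ccl2 (0.56 ± 0.47) had estimates that did not pass this threshold. Interferon-stimulated genes had a median of 0.04 with 15 of 24 above 0, and without Cmpd17b replicate 5 the median was -0.07 with 7 above 0. Their summed level was 257 CPM in that mouse and 164 to 187 CPM in the other treated mice.

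Tubular injury genes had a median of 0.04, with 9 of 17 above 0, and the median was -0.11 without Cmpd17b replicate 5 and -0.05 without vehicle replicate 3. The injury markers Havcr1, at 30.1, 12.7, 30.0 and 6.25 CPM in vehicle and 18.8, 5.03, 13.9, 18.4 and 15.2 CPM in treated mice (-0.47 ± 0.46), and Lcn2 (-0.71 ± 0.34) overlapped between groups. Immediate early genes, with a median of -0.07 and 9 of 20 above 0, had no member at an unadjusted p under 0.05. Without vehicle replicate 4 their median was 0.11 with 15 of 20 above 0 and 2 members higher at an unadjusted p under 0.05.

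Of 19 steroid-metabolising enzymes, 15 were below 0 with a median of -0.14 (-0.05 without vehicle replicate 4), and besides Srd5a2 the hydroxysteroid dehydrogenase gene Akr1c14 was at 394, 235, 427 and 298 CPM against 270.3, 204, 229.7, 232 and 243 CPM (-0.52 ± 0.16). Of 25 glutathione and antioxidant genes, 19 were below 0 with a median of -0.03, against 13 below without Cmpd17b replicate 1 and 10 below, with a median of 0.0086, without vehicle replicate 4. Gclc, the rate-limiting enzyme of glutathione synthesis, was at 395, 242, 384 and 249 CPM in vehicle and 264, 182, 197, 232 and 217 CPM in treated mice, and only vehicle replicates 1 and 3 were above the treated range (-0.54 ± 0.17).

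Of 26 unfolded protein response and heat shock genes, 21 were below 0 with a median of -0.09 (-0.05 without Cmpd17b replicate 4). Xbp1 was the only one with an unadjusted p under 0.05, beside 2.24% of all genes lower. Of 26 fatty acid oxidation genes, 17 were below 0 with a median of -0.06 (-0.03 without Cmpd17b replicate 2). Ehhadh, a peroxisomal enzyme, had a log2 fold change of -0.24 ± 0.10. Of 20 cholesterol synthesis genes, 11 were below 0 with a median of -0.05 (10 of 20 below without vehicle replicate 2 or Cmpd17b replicate 1), and Hmgcs1 was lower with overlap (-0.27 ± 0.11).

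To ask whether the BPN/3J effect differed from that in hypertensive mice, both strains were fitted together with 18 libraries, leaving out the library labelled BPH/2J Cmpd17b replicate 1, which holds heart transcripts. In that fit edgeR called 0 of 16421 genes in BPN/3J (0%, with 2.53% at an unadjusted p under 0.05), 27 in BPH/2J (0.164%, with 3.7%) and 5 for the interaction (0.0304%), the test of the difference between the strains. The 5 were Pln, Tnnt2, Ckm, Myl3 and Myh6, all genes of heart or striated muscle. The treated BPH/2J libraries that were kept also held heart muscle transcripts. In this fit the heart muscle list had a median of 4.33 in BPH/2J, with 19 of 19 genes above 0. Myh6, for example, was at 26.6 to 33.9 CPM in the treated BPH/2J libraries kept and at 0.381 to 1.25 CPM in vehicle BPH/2J libraries. In treated BPN/3J libraries it was at 0.272 to 1.65 CPM. With all 19 libraries the interaction called 0 genes, and leaving out single libraries gave 1 to 6. The part of heart tissue in these 5 differences and in the 27 BPH/2J calls was not tested.

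No clock gene passed the interaction test. Of the 31 clock genes, 22 had estimates of the same sign in both strains, beside 51.7% of all genes, and the log2 fold changes in the 2 strains had a Pearson r of 0.575 across the 31, against -0.06 across all genes. These are descriptions across genes that share libraries. Per2 had a log2 fold change of -0.91 ± 0.22 in BPN/3J and -0.69 ± 0.22 in BPH/2J, a difference of -0.22 ± 0.31. Npas2 was at 1.68 ± 0.38 against 0.31 ± 0.37, and Per1 at -0.13 ± 0.20 against -0.78 ± 0.20. An unadjusted interaction p under 0.05 was reached by 4 of 31, among them Npas2, Per1 and Sgk1, where all genes gave 3.22%, and the edgeR adjusted p was 0.9999 for Npas2.

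The vascular and matrix lists had different medians in the 2 strains, though no member passed the interaction test. Endothelial markers had a median of 0.32 in BPN/3J and -0.02 in BPH/2J in the joint fit, with 25 and 11 of 25 above 0. Matrix genes had medians of 0.32 and -0.16, with 40 and 9 of 42 above 0. Col4a1 was 0.30 ± 0.12 in BPN/3J and -0.12 ± 0.12 in BPH/2J. Unadjusted interaction p-values under 0.05 were reached by 3 of 25 endothelial and 4 of 42 matrix genes, beside 3.22% of all genes. MHC class II genes had medians of 0.35 and -0.82, and 7 of 10 had an unadjusted interaction p under 0.05. In the 9-library fit the BPN/3J median of these MHC class II genes fell from 0.34 to 0.11 without Cmpd17b replicate 5. Vehicle BPH/2J mice were widely spread for these lists, with Cd74 from 44.9 to 186 CPM and Col3a1 from 6.71 to 46.4 CPM, and the part of this spread in the difference was not tested.

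For 3 of the genes with the smallest p-values in BPN/3J the estimates in BPH/2J were nearer 0. Slc16a1 was 1.03 ± 0.21 in BPN/3J and 0.48 ± 0.20 in BPH/2J, Acvr2b -0.83 ± 0.19 and 0.08 ± 0.19, and Srd5a2 -0.48 ± 0.10 and -0.01 ± 0.10. These genes were chosen for their size in BPN/3J, which favours a smaller value in the other strain, and none passed the interaction test (edgeR adjusted p 0.9999 for Acvr2b and Srd5a2).

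**Figure D5:**
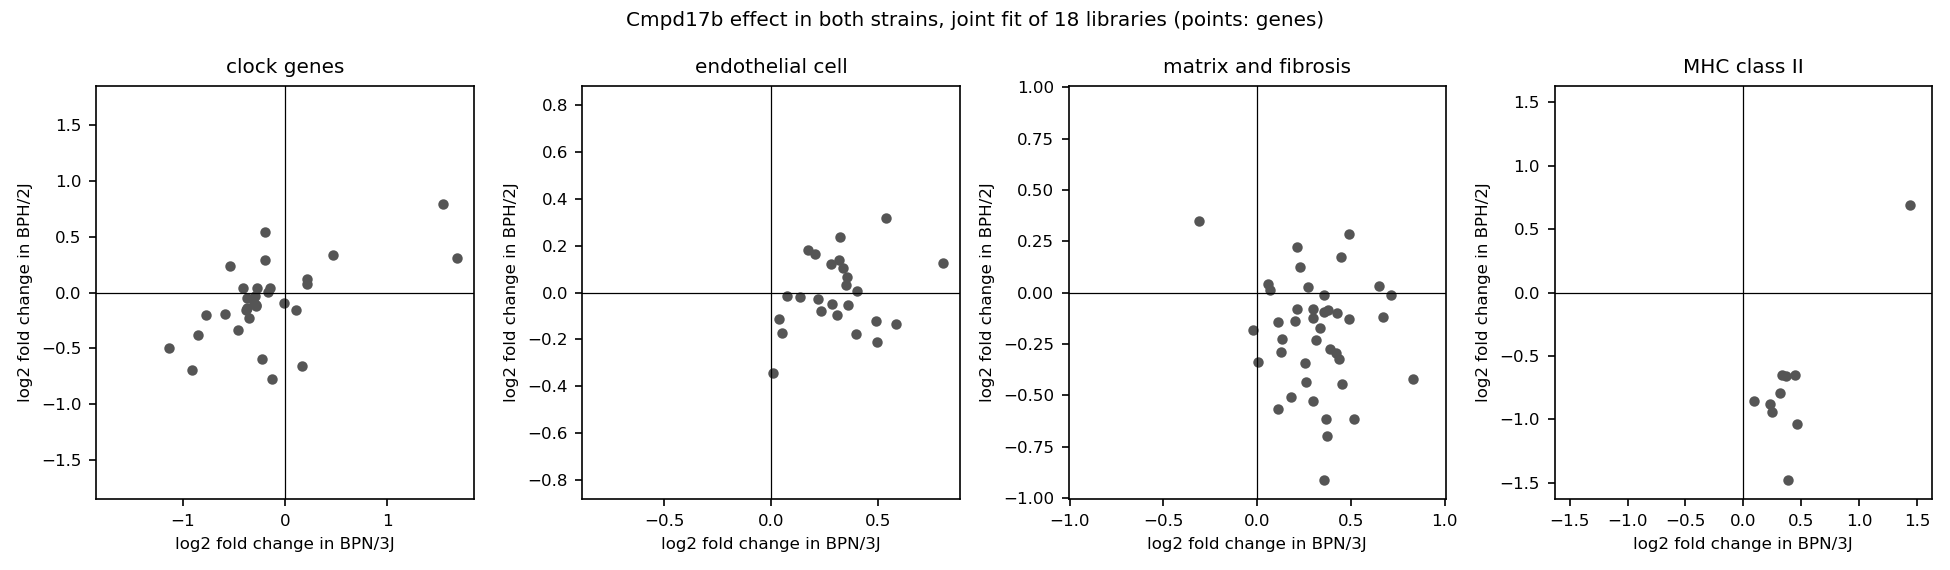
Log2 fold change by Cmpd17b in BPN/3J (x axis) against BPH/2J (y axis) from the joint fit of 18 libraries, with 1 point per gene for the clock, endothelial, matrix and MHC class II lists. Clock points run from lower left to upper right, while all endothelial and MHC class II points and 40 of 42 matrix points lie to the right of 0, and their BPH/2J values lie on both sides of 0 for endothelial genes and mostly below it for the others.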

How the data were processed

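Kidney RNA of 9 BPN/3J mice, 1 library per mouse, was compared between 4 vehicle and 5 Cmpd17b mice. The values are estimated counts per gene that the authors deposited in 1 table of 40413 genes. The submitters' processing notes name Trim Galore 0.6.7, STAR 2.7.9a and the build GRCm39 (mm39). Which program counted the reads, and with which annotation, is not given in the sources used here. For edgeR the values were made whole by rounding. Genes were kept by edgeR's filterByExpr (minimum count 10, minimum total 15), scaled by TMM and tested with edgeR 4.0.16 (robust quasi-likelihood, R 4.3.3), with Benjamini-Hochberg adjustment over all 15636 genes and a threshold of 0.05. CPM are TMM-scaled. The scripts were tested on simulated data. DESeq2 1.42.0, limma-voom (limma 3.58.1), other filters, scalings, library sets and each library left out were alternatives. The depth of 25546687 to 40998662 counts limits genes of a few counts. P-values measure the spread between these mice.

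Named genes were the 10 with the smallest p in each direction at a mean log2 CPM of at least 1 with a symbol that is no predicted locus, all tested clock genes, the 2 members of smallest p of each other list, single genes of interest to blood pressure, injury and inflammation, up to 10 DESeq2 calls, the 5 interaction calls and the genes most like Per2, and some genes this rule names are not reported here. Further list members named beside them, such as Col15a1 and Kdr, were chosen after their values were seen. The members and the 38 lists (636 gene symbols) were chosen with earlier results of these data known. Of these symbols, 75 named genes in the deposited values that did not pass the count filter. Further symbols matched no gene name there and were not tested, among them all those of the mitochondrially encoded list. Promoter letters are RefSeq's, on GRCm38.p6, and were not joined to the counts by coordinate.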

Additional observations from a re-analysis of the deposited data

Results flagged for a closer look

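The highest or lowest mouse stood apart from its group for 17 of the 268 combinations checked, each a gene or a library measure in 1 group. The measure was its gap to the nearest mouse over the group's range, set against Dixon's critical value for the group size, which by construction marks about 1 in 20 groups by chance. Vehicle replicate 2 was low for the clock genes Per1 (15.8 CPM, others 23.3 to 23.9), Dbp (125 CPM, others 181 to 186), Tef (349 CPM, others 407 to 413) and Usp2 (129 CPM, others 144 to 146), and high for the adrenal gene Star (6.65 CPM, others 0.595 to 1.07). Vehicle replicate 1 was high for Klf4 (3.99 CPM, others 3.37 to 3.47). Vehicle replicate 4 was high for Ccn2 (57.2 CPM, others 21.1 to 22.2) and for the cardiac gene Pln (2.39 CPM, others 1.59 to 1.68).

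Cmpd17b replicate 1 was high for Mylk (85.8 CPM, others 73.4 to 76.7), Col4a2 (98.3 CPM, others 86.2 to 88.5) and the brown fat gene Ucp1 (17.1 CPM, others at most 0.728). Cmpd17b replicate 2 was low for Pln (1.37 CPM, others 1.67 to 1.78), and replicate 3 high for Agtr1a (47.2 CPM, others 43.2 to 44.1). Cmpd17b replicate 5 was high for Ppp1r1a (123 CPM, others 89.2 to 98.1), Cx3cr1 (5.997 CPM, others 2.76 to 3.68), Cxcl9 (3.45 CPM, others 0.839 to 1.11) and AY036118 (41.3 CPM, others 18.6 to 23.9).

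In the 18-library fit, without BPH/2J Cmpd17b replicate 1, edgeR's interaction test called 5 muscle genes. The BPN/3J minus BPH/2J log2 fold changes were -5.35 for Ckm, -4.08 for Myh6, -5.20 for Myl3, -2.95 for Pln and -5.18 for Tnnt2. The heart muscle list had a median of 4.33 in BPH/2J, with 19 of 19 above 0. In BPN/3J it was 0.14, with 12 of 19 above 0. None of the 5 calls was kept with all 19 libraries, and the part of heart tissue was not tested.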

How the results depend on the processing

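The count of 0 called genes in BPN/3J was the same in every alternative run except DESeq2, which called 26. In BPH/2J the 27 calls became 41 with DESeq2 and 0 with all 19 libraries, and leaving out single libraries gave 21 to 30. The 5 interaction calls became 15 with DESeq2, 0 with all 19 libraries and 1 to 6 when single libraries were left out. The cause of these changes was not tested. No paired analysis was possible because the replicate numbers were given in accession order and the labels tie no vehicle mouse to a treated mouse. Among 131 named genes under 2470 gene and setting combinations, 2420 kept direction and side of the threshold, 21 passed it under DESeq2, and 29 changed sign in 12 genes. Leaving out single libraries moved the log2 fold change across 0 for Rorb (-0.46 to 0.14), Fkbp5 (-0.16 to 0.13), Star (-1.36 to 0.43), Hsd3b1 (-1.03 to 0.18), S100a9 (-0.28 to 0.22), Ren1 (-0.12 to 0.10), Ace (-0.17 to 0.11), Nos3 (-0.092 to 0.12), Edn1 (-0.30 to 0.054), Icam1 (-0.0089 to 0.19), Pln (-0.20 to 0.028) and Tnnt2 (-0.72 to 0.32). With animal number as a covariate Fkbp5 was at 0.029. Without vehicle replicate 4 and Cmpd17b replicate 5 together, an alternative chosen after seeing the data, S100a9 was at 0.21, Nos3 at -0.17 and Tnnt2 at 0.46. Genes of a few counts, the formylpeptide receptors among them, are limited by depth.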

Other observations

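Entpd4, a nucleotide-hydrolysing enzyme, was at 28, 249, 28 and 28 estimated counts in vehicle mice and at 0 in all 5 treated mice, while its near-identical neighbour copy Entpd4b was at 5624, 6577, 7662 and 6589 counts against 6043, 7068, 6786, 5046 and 5163. The division of reads between the 2 copies is uncertain, and in BPH/2J libraries Entpd4 ranged from 0 to 81 counts.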
